A study of Mus musculus with 4 samples.

Results

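Transcripts of the 7 mouse genes that write and remove DNA methylation were followed in single testis cells: the DNA methyltransferase genes Dnmt1, Dnmt3a, Dnmt3b and Dnmt3l, and the methylcytosine dioxygenase genes Tet1, Tet2 and Tet3. They were chosen by name, and all 7 of the 7 were found among the 26041 gene symbols of the count tables. Methylation in mammals sits mostly on cytosines followed by a guanine (CpG). DNMT1, brought to newly replicated DNA by UHRF1, copies the pattern onto the new strand, while DNMT3A and DNMT3B set new marks and DNMT3L, which has no catalytic activity of its own, assists them. TET enzymes oxidise 5-methylcytosine, a step towards its removal. In the male germline the de novo enzymes are known for the fetal wave of methylation, and after birth for levels that differ between undifferentiated and Kit-expressing spermatogonia.

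All cells came from testes of 4 wk old mice of a B6N strain that carried the Eomes-iCreERt2-tdTomato knock-in allele, so the Eomes locus decided which cells were sorted as tdTOMATO-positive. One genotype was Plzf +/+ and the other Plzf lu/lu, homozygous for the luxoid mutation of Plzf (gene symbol Zbtb16), a transcription factor of undifferentiated spermatogonia. The Plzf +/+ group held 3 libraries (plates 1, 2 and 4, with 317, 303 and 277 cells) and the Plzf lu/lu group 2 (plates 3 and 4, with 314 and 38 cells). The labels name no animals and do not say how many were pooled, so every p-value measures the spread between these libraries, which may be technical. Plates 1 to 3 held a single genotype each, and there an effect of the plate and one of the genotype cannot be told apart.

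Each cell was read as unique molecular identifiers (UMIs), each standing for 1 transcript captured at its 3′ end. The 1249 cells held 612 to 95069 UMIs each (median 5942), and the libraries 254514 to 2608702. Dazl or Ddx4, germ cell genes, had a UMI in 86.8% to 97.8% of the cells of a library, and 73 cells were set aside in an alternative because of somatic markers (28 cells) or spermatid transcripts (48 cells). Zbtb16 was at 51.8 to 76.7 CPM (counts-per-million) in the Plzf +/+ libraries and at 12.1 and 18.3 CPM in the Plzf lu/lu libraries (log2 fold change -1.97, edgeR adjusted p = 0.0319). On plate 4, 5 cells of the Plzf +/+ table lay in wells that the labels give to Plzf lu/lu. No 2 cells shared a well, and no doublet caller was run.

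Dnmt1 was detected in most cells and the Tet genes in few. Dnmt1 (chr9:20907206-20959888, GRCm38.p6) had 1574 UMIs in 706 of the 1249 cells (56.5%), with up to 11 in a cell. Dnmt3a (chr12:3801559-3914443) had 1021 UMIs in 592 cells (47.4%), and Dnmt3b (chr2:153649411-153687730) had 356 in 243 cells (19.5%). Tet3 (chr6:83362373-83457208) had 157 UMIs in 126 cells (10.1%). The remaining members were close to the limit of detection.

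Dnmt3l, the catalytically inactive cofactor, had 18 UMIs in 16 cells (1.28%). Tet1 had 20 UMIs in 18 cells (1.44%), and Tet2 had 8 UMIs in 8 cells (0.641%). Dnmt3l, Tet1 and Tet2 had no UMI among the 38 Plzf lu/lu cells on plate 4, where a count of 0 allows up to 11.8 CPM, a limit that covers counting error only. These genes passed no filter on low counts, so differences in their levels were not tested. The near-identical gene Gm14490, listed by RefSeq for the copy of Dnmt3b known as Dnmt3c, had 6 UMIs in 6 cells, and how reads shared by both were counted is not given in the sources used here.

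At least 1 of the 4 Dnmt genes was detected in 934 cells (74.8%) and at least 1 of the 3 Tet genes in 149 (11.9%), and 291 cells (23.3%) had a UMI of none of the 7. Dnmt3a and Dnmt3b, the catalytically active de novo enzymes, were seen together in 138 cells (11.0%), Dnmt3a without Dnmt3b in 454 and Dnmt3b without Dnmt3a in 105. These shares moved with depth: cells with a Dnmt1 UMI had a median of 7481 UMIs and cells without one a median of 4100. The 28 cells with somatic markers and neither Dazl nor Ddx4 had 0 Dnmt1 and 0 Dnmt3b UMIs among 86371, which allows up to 34.7 CPM, at a median depth of 2144 UMIs. They had 2 Dnmt3a UMIs and 1 Tet3 UMI.

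Dnmt1 and Dnmt3b rose with the share of S-phase transcripts in a cell, and Dnmt3a and Tet3 did not pass the test. The S-phase score of a cell was the percentage of its UMIs, thinned to 2000, that came from 39 genes of DNA replication, none of them a member. Within each library the cells were ranked by this score and split into 3 groups of near-equal size (tertiles), and UMIs were summed per library and tertile. The highest and lowest tertiles were compared with the library as a block, and the CPM values given here are scaled by TMM factors.

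Dnmt1, the maintenance enzyme, was at 304 CPM in the highest and 132 CPM in the lowest tertile of Plzf +/+ plate 1, at 246 and 128 CPM on plate 2, and at 263 and 125 CPM on plate 4. In Plzf lu/lu it was at 220 and 95.5 CPM on plate 3 and at 196 and 86.5 CPM on plate 4. The lowest of the 5 highest-tertile sums was above every lowest-tertile sum. The difference was 2.15-fold (log2 1.10 ± 0.122 SE, 95% interval 0.85 to 1.35, edgeR adjusted p = 2.67e-08) and had the same direction in 5 of 5 libraries. Summed over all cells, and given as plain CPM without TMM scaling, the level was 108, 143 and 251 from the lowest to the highest tertile.

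Dnmt3b, a de novo enzyme, was at 46.3 and 28.0 CPM in the highest and lowest tertiles of Plzf +/+ plate 1, at 51.5 and 27.7 CPM on plate 2, and at 42.6 and 27.3 CPM on plate 4. In Plzf lu/lu it was at 65.3 and 21.5 CPM on plate 3, and on plate 4 at 56.1 CPM against 0 UMIs, which allows up to 40.1 CPM. Its groups also did not overlap, and the difference was 2.06-fold (log2 1.04 ± 0.259 SE, 95% interval 0.51 to 1.57, edgeR adjusted p = 0.0038). Dnmt3a differed by 0.08 on the log2 scale (95% interval -0.21 to 0.36, edgeR adjusted p = 0.777) and Tet3 by 0.59 (-0.11 to 1.28, edgeR adjusted p = 0.254). So 2 of 4 tested members rose, beside 7.79% of the 9299 genes tested that rose and 19.3% called in either direction.

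**Figure D1:**
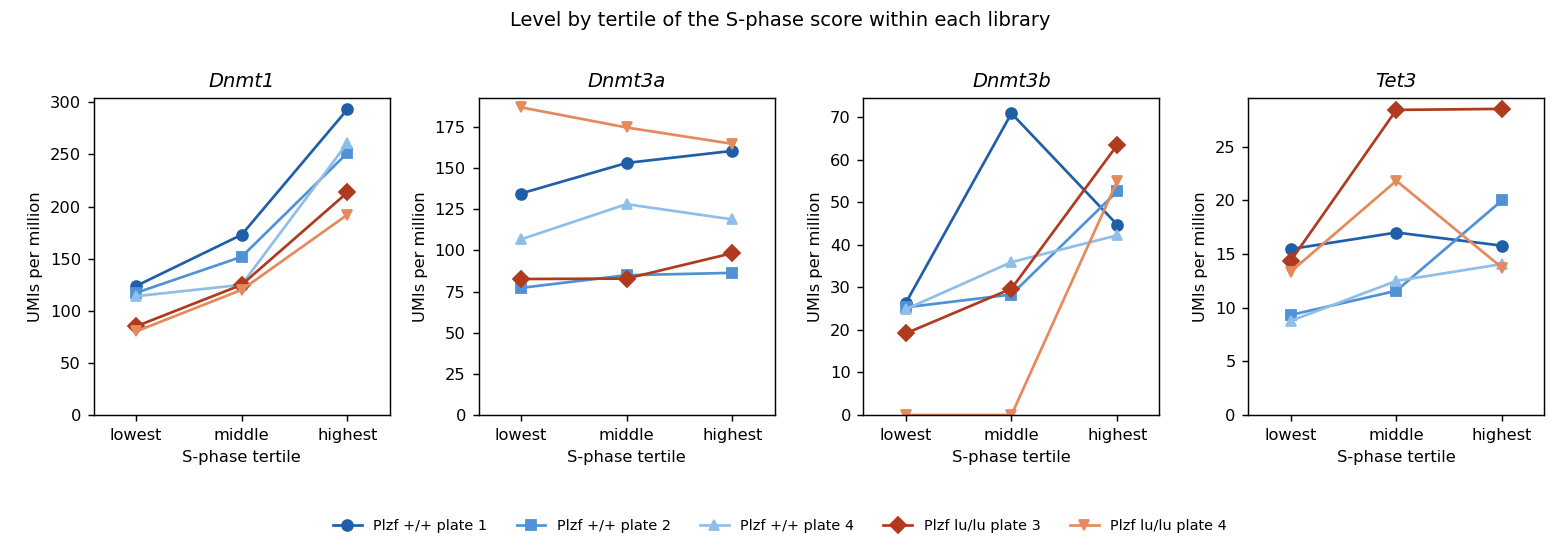
Level (plain CPM, without TMM scaling, vertical axis from 0) of Dnmt1, Dnmt3a, Dnmt3b and Tet3 in the lowest, middle and highest tertile of the S-phase score, with 1 line per library and the colours for the 2 genotypes. All 5 lines end higher than they start for Dnmt1 and for Dnmt3b, which starts at 0 on Plzf lu/lu plate 4. Dnmt3a and Tet3 were not called.

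Other properties of the cells moved with the score. The lowest tertile held 43 of the cells set aside and the highest 2. Spermatid transcripts went from 9149 to 685 plain CPM (11 of 13 tested genes fell) and Sertoli transcripts from 979 to 417 (2 of 3 fell). Genes of the G2 and M phases of the cell cycle rose as well, 34 of 51 tested with a median log2 difference of 0.65. Their part in the Dnmt1 and Dnmt3b values was not tested. The share of cells with a UMI of Kit or Stra8, genes of differentiating spermatogonia, was 15.0%, 27.2% and 40.2% from the lowest to the highest tertile, and the median depth 5908, 6092 and 6993 UMIs. The share of Gfra1-positive cells was 57.6%, 57.3% and 61.4%.

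The Dnmt1 call was kept without the cells set aside (log2 0.93, edgeR adjusted p = 0.000278), in Gfra1-positive cells only (0.86, adjusted p = 1.88e-05), in Gfra1-negative cells only (1.56, adjusted p = 2.35e-05) and in the Plzf +/+ libraries only (1.07). It was lost among cells with a Kit or Stra8 UMI (0.83, edgeR adjusted p = 0.179), where 21 of 4336 genes were called. Over the 16 fits, the main one included, the edgeR or DESeq2 adjusted p of Dnmt1 ran from 1.67e-16 to 0.179. The level among the Kit or Stra8 cells was 108, 144 and 237 plain CPM over the tertiles, and among cells with neither gene, those set aside left out, it was 126, 147 and 263.

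The Dnmt3b call depended on which cells entered. Among cells with neither Kit nor Stra8 and not set aside, Dnmt3b was at 21.8, 29.7 and 26.6 plain CPM from the lowest to the highest tertile (42, 57 and 46 UMIs), a log2 difference of 0.22 (edgeR adjusted p = 0.901). Among cells with a Kit or Stra8 UMI it was at 37.1, 60.6 and 81.9 (25, 62 and 121 UMIs), a difference of 0.86 (edgeR adjusted p = 0.372). Whether these 2 differences themselves differ was not tested. The call was also lost without the cells set aside (0.85, edgeR adjusted p = 0.138), in Gfra1-positive cells only (0.84, 0.108), in the Plzf +/+ libraries only (0.75, 0.0872) and without Plzf lu/lu plate 3 (0.83, 0.0916). Over the 15 fits of Dnmt3b, the main one included, its edgeR or DESeq2 adjusted p ran from 0.000391 to 0.901.

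The promoters of Dnmt1, Uhrf1 and Dnmt3b are shown because these genes rose with the S-phase score, and E2F factors, known to activate genes at entry into S phase, bind short GC-rich words. Each window runs from 250 bases before to 50 bases after an annotated RefSeq start in GRCm38.p6. Where a gene had several starts, the window with the most CpG was taken. Capitals mark a match to 1 of 4 E2F words, TTTGGCGC, TTTCGCGC, TTTCCCGC and TTTGCCGC, on either strand.
Dnmt1, chr9:20952574-20952873, minus strand: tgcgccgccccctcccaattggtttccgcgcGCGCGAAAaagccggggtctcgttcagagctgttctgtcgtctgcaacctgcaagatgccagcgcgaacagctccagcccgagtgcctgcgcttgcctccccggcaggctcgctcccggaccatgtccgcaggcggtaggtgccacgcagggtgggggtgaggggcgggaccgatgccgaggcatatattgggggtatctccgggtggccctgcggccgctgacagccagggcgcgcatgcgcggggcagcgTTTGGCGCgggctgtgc
Uhrf1, chr17:56304063-56304362, plus strand: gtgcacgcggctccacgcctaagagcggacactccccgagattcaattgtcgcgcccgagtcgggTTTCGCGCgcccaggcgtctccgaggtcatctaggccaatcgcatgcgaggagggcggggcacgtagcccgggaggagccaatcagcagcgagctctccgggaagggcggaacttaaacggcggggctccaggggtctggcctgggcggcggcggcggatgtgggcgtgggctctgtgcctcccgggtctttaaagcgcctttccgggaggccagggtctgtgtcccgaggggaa
Dnmt3b, chr2:153649199-153649498, plus strand: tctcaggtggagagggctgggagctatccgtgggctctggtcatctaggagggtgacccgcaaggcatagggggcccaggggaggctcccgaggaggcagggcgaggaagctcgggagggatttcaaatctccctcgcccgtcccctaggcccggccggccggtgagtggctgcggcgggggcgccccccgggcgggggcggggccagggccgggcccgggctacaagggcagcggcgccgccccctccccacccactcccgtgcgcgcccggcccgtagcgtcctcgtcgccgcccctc

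The Dnmt1 window held 2 words that did not overlap: TTTCGCGC on the opposite strand, 219 to 212 bases before the start, and TTTGGCGC on the gene's strand, 34 to 41 bases after it. The Uhrf1 window held TTTCGCGC on its own strand, 185 to 178 bases before the start. The Dnmt3b window held none of the 4 words. Of all 32851 promoter windows in the RefSeq table, 2.26% held at least 1 of the words. Among the maintenance methylation genes other than Dnmt1 that rose with the score, the windows of Uhrf1, Hells, Cdca7 and Lig1 held a word. Those of Pcna and Trim28, which also rose, held none. These genes were picked by their rise with an S-phase score, and a part of E2F factors in it was not tested. A match is a description of the letters and not a binding site. The windows of Dnmt1 and Uhrf1 held 33 CpG each, chosen for the most CpG among 3 and 2 windows of the gene, and the single Dnmt3b window 30. With the same choice made for every gene symbol, the median was 8 CpG and 2.39% of the windows held a word.

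Genes of maintenance methylation rose with the same score, as did genes that supply the methyl donor, while the readers of methylated CpG were not called. Of the 9 tested maintenance genes 6 rose and none fell, with a median log2 difference of 0.86 beside 0.0024 over all genes. Pcna, the replication clamp, rose by 1.36 (edgeR adjusted p = 2.05e-12), Lig1, the DNA ligase of replication, by 1.61 (adjusted p = 2.29e-11), and Hells, a chromatin remodeller needed for normal methylation, by 1.09 (adjusted p = 6.62e-10). Uhrf1, named after its value was seen, rose by 1.22 (edgeR adjusted p = 3.62e-06). PCNA and LIG1 act in all DNA replication and not in methylation alone. The score was built from genes of DNA replication. A rise of other replication-linked genes with it, here and in the lists below, was partly set by that choice. DESeq2 called 5 of the 9, and edgeR 5 without the cells set aside.

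Of 11 tested methyl donor and folate cycle genes, 7 rose and 1 fell (Ahcyl2, by 0.63, named after its value was seen), beside 7.79% of all genes that rose and 11.5% that fell. DESeq2 called 4 of the 11. Tyms, thymidylate synthase, rose by 1.07 on the log2 scale (edgeR adjusted p = 6.28e-07), and Shmt1, which makes methylene-tetrahydrofolate, by 1.10 (adjusted p = 3.71e-06). These enzymes are known for making the thymidine of new DNA as well as for one-carbon supply. Without the cells set aside 4 of the 11 were called. In the demethylation and base excision list 4 of 14 were called, beside 19.3% of all genes, and 2 of 14 by DESeq2. Of the 4, 3 rose and 1 fell. Ung, a uracil glycosylase, rose by 1.43 (edgeR adjusted p = 1.96e-09). It belongs to the S-phase list and was left out of the score because the 2 lists share it. Neil3 rose by 1.75 (adjusted p = 6.79e-06) and Parp1 by 0.32 (adjusted p = 0.026). Neil2, named after its value was seen, fell by 1.01 (adjusted p = 0.0361). In the list of de novo methylation partners and histone methylation, 2 of 16 rose, Suv39h1 by 0.48 (edgeR adjusted p = 0.0082) and Cbx1 by 0.57 (adjusted p = 0.00928), beside the 7.79% of all genes that rose. None of the 16 was called by DESeq2, or by edgeR without the cells set aside. Of 9 methyl-CpG readers, edgeR and DESeq2 both called 0, and 0 had an unadjusted p under 0.05.

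Summed over all libraries, Dnmt3b and Tet3 had their highest levels in cells with Kit or Stra8 but no Gfra1. Gfra1 encodes the GDNF co-receptor of undifferentiated spermatogonia, and the cells not set aside were sorted by detection of Gfra1 (at least 1 UMI) and of Kit or Stra8. Of these cells 506 had Gfra1 alone, 171 had both, 149 had Kit or Stra8 alone and 350 had none of these genes. Detection follows depth, with medians of 6353, 8683, 5877 and 4195 UMIs, so the classes are described with no test.

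Dnmt3b was at 25.2 plain CPM in cells with Gfra1 alone, 47.9 in cells with both, 101 in cells with Kit or Stra8 alone and 26.3 in cells with none. The level with Kit or Stra8 alone, set beside that with Gfra1 alone, was 127 and 36.6 plain CPM on Plzf +/+ plate 1, 155 and 27.4 on plate 2, and 82.9 and 15.9 on plate 4. It was 81.4 and 19.9 on Plzf lu/lu plate 3. On Plzf lu/lu plate 4 it was 44.6, from 3 UMIs in 6 cells, against 0 UMIs in 11 cells, which allows up to 35.0. The higher value was that of the Kit or Stra8 cells in 5 of 5 libraries.

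Tet3 was at 9.01, 15.3, 47.7 and 17.9 plain CPM in the same order of classes. With Kit or Stra8 alone and with Gfra1 alone it was at 33.6 and 5.94 on Plzf +/+ plate 1, 86.6 and 3.79 on plate 2, and 12.8 and 11.0 on plate 4, with 52.2 and 18.6 on Plzf lu/lu plate 3. On Plzf lu/lu plate 4 it was at 59.5, from 4 UMIs, against 0 UMIs with the same limit of 35.0. Of these 2 classes the Kit or Stra8 cells had the higher value in all 5 libraries. On Plzf +/+ plate 4, where their 12.8 plain CPM came from 2 UMIs, the cells with none of these genes were higher, at 21.3. Dnmt1 spanned 140 to 195 and Dnmt3a 99.8 to 125 plain CPM over the 4 classes, a smaller ratio between the highest and lowest class than for Dnmt3b or Tet3. In 45 of the 48 cells set aside for spermatid transcripts, leaving out 3 that also had somatic markers, Dnmt1 and Dnmt3a were at 48.3 plain CPM each, Dnmt3b at 10.4 and Tet3 at 8.63.

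**Figure D2:**
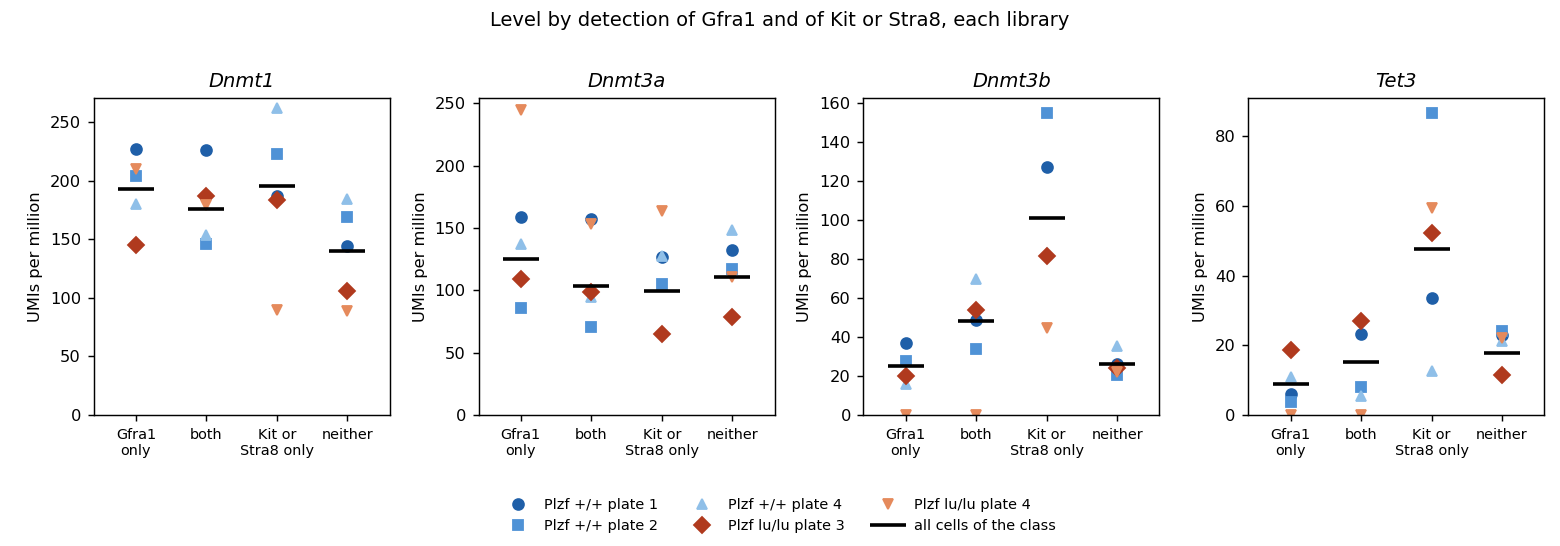
Level (plain CPM, without TMM scaling, vertical axis from 0) of Dnmt1, Dnmt3a, Dnmt3b and Tet3 in cells with Gfra1 only, with both Gfra1 and Kit or Stra8, with Kit or Stra8 only, and with neither. Points are the 5 libraries and the black bar is the level over all cells of the class, at 101 for Dnmt3b and 47.7 for Tet3 in the Kit or Stra8 only class.

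Gfra1-positive cells (700 cells, 566 of them Plzf +/+) were then compared with Gfra1-negative cells (549) of the same libraries, the comparison that asks whether methylation genes differ with a marker of undifferentiated spermatogonia. No member passed the test. Dnmt3b and Tet3 had lower levels in the Gfra1-positive cells of 5 of 5 libraries, but with adjusted p-values above the threshold. Of 4 members tested edgeR called 0 and DESeq2 called 0, with 2 at an unadjusted p under 0.05, beside 0.198% of 10604 genes called (21 genes, Gfra1 among them by construction).

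Dnmt3b was at 39.1 CPM in Gfra1-positive and 69.7 CPM in Gfra1-negative cells of Plzf +/+ plate 1, at 29.4 and 62.9 CPM on plate 2, and at 31.0 and 44.4 CPM on plate 4. In Plzf lu/lu it was at 32.8 and 45.5 CPM on plate 3, and on plate 4 at 0 UMIs, which allows up to 24 CPM, against 33.1 CPM. The log2 difference was -0.80 ± 0.250 SE (95% interval -1.35 to -0.25, unadjusted p = 0.00886, edgeR adjusted p = 0.291). The 5 Gfra1-positive values and the 5 Gfra1-negative values overlapped only through the 33.1 CPM of Plzf lu/lu plate 4.

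Tet3 was at 11.5 CPM in Gfra1-positive and 27.5 CPM in Gfra1-negative cells of Plzf +/+ plate 1, at 5.66 and 45.2 CPM on plate 2, and at 9.54 and 17.4 CPM on plate 4. In Plzf lu/lu it was at 21.8 and 26.7 CPM on plate 3 and at 0 UMIs and 41.3 CPM on plate 4. The log2 difference was -1.37 ± 0.442 SE (95% interval -2.36 to -0.39, unadjusted p = 0.0112, edgeR adjusted p = 0.318). With no filter on low counts Tet3 was called (log2 -1.34, edgeR adjusted p = 0.0121). Over the 15 fits, the main one included, its edgeR or DESeq2 adjusted p ran from 0.0121 to 0.88. Its log2 difference ran from -1.90 to -0.71.

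Dnmt1 was at 165 to 222 CPM in the Gfra1-positive cells of the 3 Plzf +/+ libraries and at 164 to 192 CPM in the Gfra1-negative cells. On Plzf lu/lu plates 3 and 4 it was at 157 and 201 CPM against 136 and 82.7 CPM. The log2 difference was 0.23 ± 0.157 SE, with a 95% interval of -0.12 to 0.58 (edgeR adjusted p = 0.748). Dnmt3a was higher in Gfra1-positive cells in 3 of 5 libraries, with a log2 difference of 0.16 ± 0.159 SE (-0.19 to 0.51, edgeR adjusted p = 0.853).

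**Figure D3:**
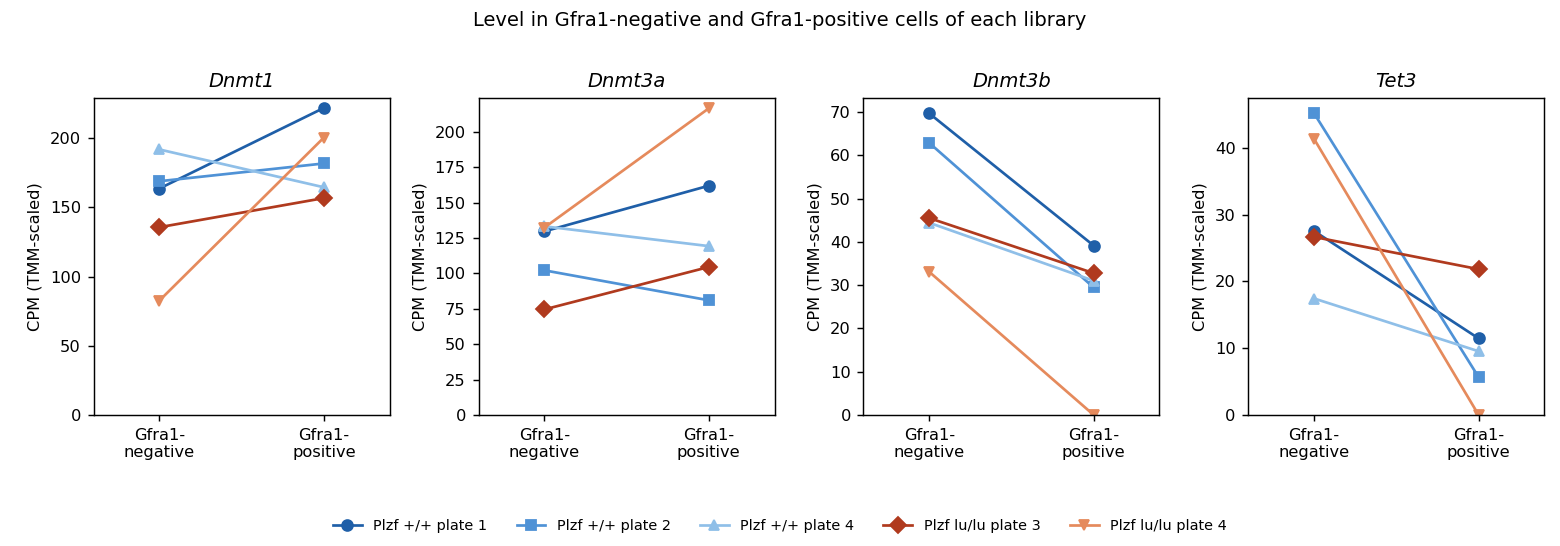
Level (CPM, TMM-scaled, vertical axis from 0) of Dnmt1, Dnmt3a, Dnmt3b and Tet3 in Gfra1-negative and Gfra1-positive cells, with 1 line per library. All 5 lines go down for Dnmt3b and Tet3, to 0 on Plzf lu/lu plate 4, and the lines of Dnmt1 and Dnmt3a go both ways.

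Gfra1-positive cells were the deeper ones, with library medians of 6140 to 9461 UMIs against 4055 to 4751 UMIs. A deeper cell is more likely to show a Gfra1 UMI, and the cause of the depth difference was not tested. The share of cells with a Dnmt1 UMI was 65.7% in Gfra1-positive and 44.8% in Gfra1-negative cells. With each cell thinned to 2000 UMIs, and status set again at that depth (384 of 1167 cells positive, 82 shallower cells left out), it was 28.9% and 24.8%. For Dnmt3b the shares were 20.0% and 18.8% at full depth and 5.47% and 8.56% after thinning, and for Tet3 7.86% and 12.9%, then 0.781% and 3.58%. Kit or Stra8 was detected in 171 of 677 Gfra1-positive cells not set aside (25.3%, exact Clopper-Pearson 95% interval 22.0 to 28.7) and in 149 of 499 Gfra1-negative cells (29.9%, 25.9 to 34.1), intervals that cover counting error only. Of 6 tested genes of differentiating spermatogonia, 1 was higher in Gfra1-positive cells and Stra8 was called lower by edgeR (median log2 difference -0.31). DESeq2 called 1 of the 6, and 3 had an unadjusted p under 0.05. The list's summed plain CPM in Gfra1-positive and Gfra1-negative cells was 819 and 1286, 866 and 1269, and 847 and 1150 in the Plzf +/+ libraries. In Plzf lu/lu it was 1152 and 1353, and 1009 and 1381. Among transcripts of other cell types, the median log2 difference, Gfra1-positive minus Gfra1-negative, was -1.56 for 6 tested Sertoli genes and -0.63 for 14 tested spermatid genes, of which edgeR called 0 of each. The summed Sertoli level was lower in Gfra1-positive cells on Plzf +/+ plate 2 and on both Plzf lu/lu plates, and higher on Plzf +/+ plates 1 and 4 (540 against 513 and 463 against 376 plain CPM). DESeq2 called 2 of the Sertoli and 0 of the spermatid genes, and 4 and 1 had an unadjusted p under 0.05. The summed level of 6 T and NK cell genes, too low to be tested, was 5.38 in Gfra1-positive and 43.6 plain CPM in Gfra1-negative cells of Plzf +/+ plate 1, 9.12 and 222 on plate 2, and 6.83 and 42.2 on plate 4. It was 46.0 and 29.4 on Plzf lu/lu plate 3 and 8.01 and 77.1 on plate 4. The gap on Plzf +/+ plate 2 was the largest for these genes. The part of these transcripts in the Dnmt3b and Tet3 values was not tested.

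Plzf lu/lu and Plzf +/+ cells were compared over whole libraries, the comparison that asks what loss of Plzf does to the sorted cells. No member was called: edgeR and DESeq2 called 0 of 4, with 1 at an unadjusted p under 0.05, beside 0.816% of 13728 genes called.

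Tet3 was at 15.9, 13.6 and 11.8 CPM in Plzf +/+ (mean 13.8 ± 2.07 SD, n = 3) and at 24.7 and 20.1 CPM in Plzf lu/lu (22.4 ± 3.25 SD, n = 2). The log2 difference was 0.76 ± 0.315 SE (95% interval 0.04 to 1.49, unadjusted p = 0.0406, edgeR adjusted p = 0.325). The 20.1 CPM of Plzf lu/lu plate 4 came from 5 UMIs in 4 cells. A Tet3 UMI was found in 77 of 897 Plzf +/+ cells (8.58%, exact Clopper-Pearson 95% interval 6.83 to 10.6) and in 49 of 352 Plzf lu/lu cells (13.9%, 10.5 to 18.0), and with cells thinned to 2000 UMIs in 2.16% and 3.90%, shares pooled over libraries and with counting error only. Dnmt1 was at 201, 167 and 168 CPM (179 ± 19.4 SD, n = 3) and at 149 and 141 CPM (145 ± 5.84 SD, n = 2), with a log2 difference of -0.29 ± 0.159 SE (edgeR adjusted p = 0.470). Gfra1-positive cells made up 64.7%, 66.0% and 58.1% of the Plzf +/+ libraries and 37.9% and 39.5% of the Plzf lu/lu libraries. The part of this shift in the Tet3 and Dnmt1 values was not tested.

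Dnmt3a was at 150, 80.1 and 120 CPM in Plzf +/+ and at 91.2 and 173 CPM in Plzf lu/lu, a log2 difference of 0.06 with an interval of -0.87 to 0.99 (edgeR adjusted p = 0.999). Dnmt3b was at 47.3, 34.5 and 34.3 CPM and at 39.8 and 16.1 CPM, a log2 difference of -0.23 with an interval of -1.0 to 0.54 (edgeR adjusted p = 0.871). Both spreads between the Plzf lu/lu libraries, from 314 and 38 cells, exceeded the difference between the group means. Within plate 4, the only plate with both genotypes, Plzf +/+ and Plzf lu/lu stood at 168 and 141 CPM for Dnmt1, 120 and 173 CPM for Dnmt3a, 34.3 and 16.1 CPM for Dnmt3b, and 11.8 and 20.1 CPM for Tet3. In the same order of genes, the Plzf lu/lu values rest on 35, 43, 4 and 5 UMIs from 38 cells. In that library 3 counts make 11.8 CPM.

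Sertoli cell markers differed in the same comparison: 4 of 8 tested were called higher in Plzf lu/lu (Amhr2, Cldn11, Clu and Sox9), and the summed level of the list was 433 to 532 CPM in Plzf +/+ and 668 and 1013 CPM in Plzf lu/lu. Setting aside the 73 cells did not remove this difference: 3 of the 4 markers kept their call (Amhr2, Cldn11 and Sox9), Aard gained one and Clu lost it, with a median log2 difference of 2.42 against 2.29 before. Genes of the G2 and M phases summed to 7687 to 8314 plain CPM in Plzf +/+ and to 6570 and 6110 in Plzf lu/lu. Their median log2 difference was -0.31, with 12 of 52 tested at an unadjusted p under 0.05, edgeR calling 0 and DESeq2 1. Differentiating spermatogonia genes were at 951 to 959 and at 1254 and 1198 plain CPM, with 0 of 6 called. The part of these differences in the Tet3 and Dnmt1 values was not tested.

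Among Gfra1-positive cells alone edgeR and DESeq2 called 0 of 4 members between genotypes, with 0 at an unadjusted p under 0.05, beside 0.0885% of 12430 genes called. The log2 differences were -0.15 for Dnmt1 (edgeR adjusted p = 0.790), 0.23 for Dnmt3a (0.845), -0.40 for Dnmt3b (0.790) and 0.93 for Tet3 (0.584), around a median of -0.13 over all genes. The 14 spermatid markers tested here were at a median of -1.63, 0 of them called and 4 at an unadjusted p under 0.05, and the 6 Sertoli markers at 0.46, with 0 called and 0 under 0.05, and DESeq2 called 0 of either. Their part in the members' values was not tested. Tet3 was called without Plzf +/+ plate 1 (log2 1.47, edgeR adjusted p = 0.0437), and Plzf lu/lu plate 4 had 0 Tet3 UMIs in its Gfra1-positive cells, so the value rests on plate 3. Over the 11 fits, the main one included, Tet3 was called in 1.

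Among Gfra1-negative cells 0 of 4 members were called by edgeR or DESeq2, with 1 at an unadjusted p under 0.05, beside 0.488% of 9827 genes. Dnmt1 was lower in Plzf lu/lu by a log2 difference of -0.53 (95% interval -1.01 to -0.04, unadjusted p = 0.0369, edgeR adjusted p = 0.445). Dnmt3a differed by -0.43 (edgeR adjusted p = 0.636), Dnmt3b by -0.45 (0.691) and Tet3 by 0.02 (1.00). Of 6 Sertoli markers tested among these cells 3 were called higher in Plzf lu/lu (Amhr2, Cldn11 and Clu), with a median log2 difference of 2.62, and the median of 14 spermatid markers was 0.76 with 0 called. Their part in the Dnmt1 value was not tested.

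The interaction asks whether the Gfra1 status difference itself differed between genotypes. It was called for 0 of 4 members by edgeR and by DESeq2, with 0 at an unadjusted p under 0.05, beside 0.00815% of 12264 genes (1 gene). Its value, Plzf lu/lu minus Plzf +/+, was 0.63 on the log2 scale for Dnmt3a (95% interval -0.02 to 1.27, edgeR adjusted p = 0.689), 0.40 for Dnmt1 (-0.27 to 1.07, 0.890), 0.12 for Dnmt3b (-1.04 to 1.29, 1.00) and 1.06 for Tet3 (-0.77 to 2.89, 0.882). The intervals of Dnmt3b and Tet3 allow large differences in either direction. Markers of other cell types had interaction medians of -1.87 for 8 Sertoli, -1.83 for 14 spermatid, -0.72 for 14 spermatocyte and 6.17 for 3 T and NK cell genes, with 5, 3, 3 and 2 at an unadjusted p under 0.05. Neither edgeR nor DESeq2 called any of these, and their part in the members' values was not tested.

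**Figure D4:**
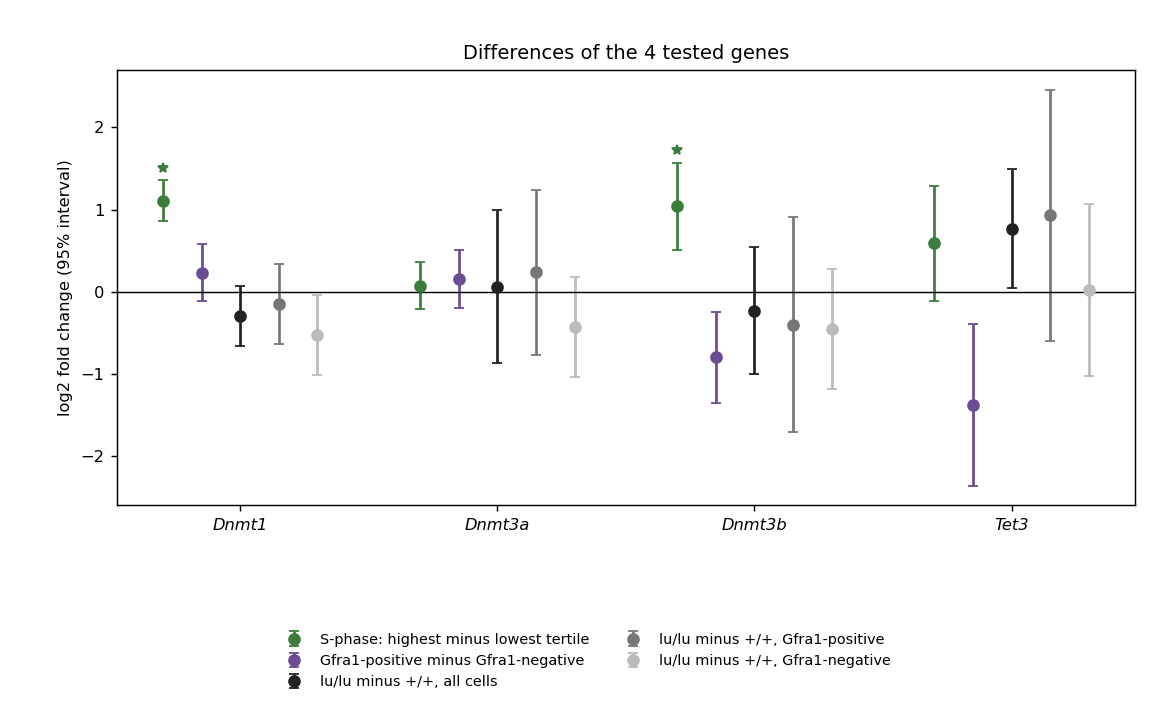
Log2 difference (vertical axis) of Dnmt1, Dnmt3a, Dnmt3b and Tet3 in 5 comparisons, with 95% intervals from edgeR, and a star marks an adjusted p under 0.05. The stars stand at the S-phase comparison of Dnmt1 (1.10) and Dnmt3b (1.04) and nowhere else.

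The other genes of the pathway, in 5 lists of 75 genes in all, were likewise not called by Gfra1 status or genotype. By status edgeR called 0 of 63 tested and DESeq2 0, beside 0.198% of all genes called, with 13 at an unadjusted p under 0.05, beside 9.16% of all genes. By genotype over all cells both tools called 0 of 66, beside 0.816% of all genes called, with 10 at an unadjusted p under 0.05, beside 14.2% of all genes. The median log2 difference by status was 0.14 for the 9 maintenance genes, -0.04 for 16 genes of de novo methylation partners, 0.00023 for 17 demethylation genes, 0.18 for 9 readers and 0.16 for 12 methyl donor genes, beside 0.02 over all genes. By genotype the medians were 0.02, -0.13, -0.04, -0.40 and 0.02, beside 0.0035 over all genes.

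Genes most like each tested member were taken as the 3 with the highest Pearson correlation of log2 CPM over the 10 sums of library and Gfra1 status, among genes with a mean of at least 50 CPM. The 10 sums share 5 libraries and their depth, so these are descriptions. For Dnmt1 they were Rad54b (r = 0.965), Syncrip (0.965) and Anapc4 (0.964). For Dnmt3b they were Gm9493 (0.980), Dtl (0.978) and Tmem9b (0.975). For Dnmt3a they were Prpf6 (0.907), Sgol1 (0.906) and Mcm8 (0.897), and for Tet3 Smim4 (0.949), H2-K1 (0.945) and Syce2 (0.940).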

How the data were processed

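Single cells sorted by tdTOMATO fluorescence were sequenced from the 3′ end in 4 plates. The authors deposited 1 table per genotype, whose values are raw UMI counts per gene symbol and cell, not normalized. Per the labels the submitters' notes name bcl2fastq 2.18.0.12, Picard 2.9.3, STAR 2.5.4a and the build GRCm38. How UMIs were collapsed and multi-mapping reads treated is not given in the sources used here. Cells were tied to libraries by the ending of their names and to wells by the barcode in them, and 0 columns of per-sample values stayed unused. Cells of plate 4 took their genotype from the table that lists them.

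UMIs were summed per library, per library and Gfra1 status (at least 1 UMI), or per library and tertile of the S-phase score. The sums were filtered with filterByExpr, scaled by TMM and tested with glmQLFit and glmQLFTest (robust) of edgeR 4.0.16 in R 4.3.3, where the study treated cells as replicates. The library was a block in the status, interaction and S-phase fits, and p-values were adjusted by Benjamini-Hochberg over all genes tested, with a threshold of 0.05. Intervals of 95% use the degrees of freedom of the fit. Cells were thinned to 2000 UMIs with seed 1. A cell was set aside with at least 3 genes of 1 somatic list and no Dazl or Ddx4 UMI, or at least 1% of its UMIs from the spermatid list. The fits were tested on simulated data. DESeq2 1.42.0, other filters, other scaling and left-out libraries were alternatives, and those by well, by Gfra1 status within the S-phase comparison and by Kit or Stra8 were chosen after seeing the data.

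The members and gene lists were chosen with earlier results of these data known. All members were named in each comparison, and from each pathway list the called genes with the smallest p (at most 3 in the S-phase comparison), besides the 3 genes most like each member. A gene of the methyl donor list that this rule would name is not reported here. Promoter windows for 7 of 7 members came from the RefSeq table of GRCm38.p6, and gene coordinates from RefSeq.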

Additional observations from a re-analysis of the deposited data

How the results depend on the processing

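In the S-phase comparison Dnmt1 was called in 15 of 16 fits and Dnmt3b in 9 of 15, the main fit counted among them. Their log2 differences stayed above 0 in each of these. The genes called, 1796 in the report, were 1116 by DESeq2 and 296 without the cells set aside. They were 1152 in Plzf +/+ libraries only, 817 in Gfra1-positive and 610 in Gfra1-negative cells only, and 278 without Kit or Stra8 cells and cells set aside, with 1 member called in each of the last 5. Among Kit or Stra8 cells only, 21 genes and 0 members were called. Leaving out 1 library at a time gave 1054 to 2003 genes and 1 to 2 members. The log2 difference of Dnmt3a, not called, turned to -0.067 without the cells set aside, -0.013 in Gfra1-positive cells and -0.10 without Kit or Stra8 cells.

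By Gfra1 status the 21 genes called became 65 by DESeq2, 267 with no filter on low counts (1 member, Tet3), 238 at 2000 UMIs per cell, 138 with at least 2 Gfra1 UMIs against 0, 2 with no library block, and 4 to 139 without 1 library. Dnmt3a turned to -0.045 in Plzf +/+ libraries only. By genotype over all cells the 112 genes became 583 with no filter, 255 without the cells set aside and 1 to 1387 without 1 library. Dnmt3a was at -0.0049 without the cells set aside, and without 1 library Dnmt3a ran from -0.36 to 0.55 and Dnmt3b from -1.28 to 0.062.

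By genotype in Gfra1-positive cells the 11 genes became 21 with RLE scaling, 74 by DESeq2, 551 with no filter, 61 without the cells set aside, 61 at 2000 UMIs, 52 with at least 2 Gfra1 UMIs, and 1 to 1965 without 1 library, with 0 to 1 members. Dnmt3a turned to -0.54 at 2000 UMIs. Without 1 library Dnmt1 ran from -0.21 to 0.052, Dnmt3a from -0.10 to 0.81, Dnmt3b from -8.28 to 0.10 and Tet3 from -6.38 to 1.47. The lowest values of Dnmt3b and Tet3 set a library with 0 UMIs alone against Plzf +/+, and depend on the prior count. In Gfra1-negative cells the 48 genes became 17 by DESeq2, 223 with no filter, 755 without the cells set aside, 114 at 2000 UMIs, and 1 to 91 without 1 library. Tet3 turned to -0.012 without the cells set aside and ran from -0.27 to 0.48 without 1 library, Dnmt3a from -0.67 to 0.11 and Dnmt1, at -0.53 with all libraries, from -1.08 without Plzf lu/lu plate 3 to -0.33 without Plzf lu/lu plate 4.

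For the interaction the 1 gene became 0 by DESeq2, 194 with no filter, 50 without the cells set aside, 3 at 2000 UMIs, 11 with at least 2 Gfra1 UMIs, and 0 to 22 without 1 library. Dnmt3b was at -0.058 by DESeq2, and Dnmt1 at -0.052 and Dnmt3a at -0.24 at 2000 UMIs. Without 1 library Dnmt3b ran from -6.84 to 0.37, Tet3 from -6.26 to 1.47 and Dnmt1, at 0.40 with all libraries, from 0.12 without Plzf lu/lu plate 4 to 1.21 without plate 3. The cause of these changes was not tested. A left-out library can leave 1 in a genotype, which is then assumed to vary like the others. The replicate numbers name plates that hold 1 genotype each apart from plate 4. No paired analysis was possible because the genotypes share 1 plate. Depth limits Dnmt3l, Tet1 and Tet2 most, with 8 to 20 UMIs each, and the Plzf lu/lu library of 38 cells, where single members stand at 0 UMIs.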

Other observations

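The levels were also read by the number of Gfra1 UMIs left in each cell after thinning to 2000 UMIs, where every cell has the same depth. Cells with 0, 1 and 2 or more Gfra1 UMIs numbered 783, 272 and 112. Dnmt1 was at 162, 175 and 196 CPM in these cells and Dnmt3a at 98.3, 119 and 152 CPM. Dnmt3b was at 46.6, 27.6 and 31.3 CPM, from 73, 15 and 7 UMIs, and Tet3 had 29, 3 and 0 UMIs. The orders differed between genotypes: Dnmt1 was at 172, 184 and 191 CPM in Plzf +/+ cells and at 144, 128 and 222 CPM in Plzf lu/lu cells, and Dnmt3a at 108, 120 and 176 CPM and at 80.2, 117 and 27.8 CPM. Dnmt3b was at 49.5, 26.7 and 26.6 CPM in Plzf +/+ and at 41.0, 31.9 and 55.6 CPM in Plzf lu/lu. The last Plzf lu/lu values rest on 18 cells with 8, 1 and 2 UMIs of Dnmt1, Dnmt3a and Dnmt3b. No test was made, since the cells of a library are not replicates.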
